A study of Mus musculus with 16 samples.

Results

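The nuclear-encoded genes of the respiratory chain were taken by gene name, from the prefixes that mark NADH dehydrogenase (Nduf), succinate dehydrogenase (Sdh), ubiquinol-cytochrome c reductase (Uqc), cytochrome c oxidase (Cox4 to Cox8) and ATP synthase (Atp5). The pattern matched 83 of the 11710 genes in the count table, and all 83 were tested. Of these, 36 were assigned to complex I, 4 to complex II, 8 to complex III, 17 to complex IV and 14 to complex V. In complex I, Ndufb1-ps is annotated as a non-coding RNA of a bidirectional promoter and not as protein-coding. The complex IV group includes Ndufa4, its paralog Ndufa4l2 and Cox7a2l. The other 4 matches are not subunits: Uqcc1, Uqcc2 and Uqcc3 assist the assembly of complex III, and Atp5s is a coupling factor of ATP synthase. The isoform genes Cox6b2 and Atp5g2 were not analysed here.

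RNA came from mouse rotator cuff muscle of the inbred strains C57BL/6J (BL6) and MRL/MpJ (MRL), the latter known for unusual healing of some wounds. In each strain 4 muscles had undergone removal of the tendon together with denervation (operated), and 4 came from mice that were not operated. The labels of the 16 muscles name no engineered allele or drug. The sample labels name the supraspinatus and the series description the infraspinatus, and age, sex and the time from surgery to collection are not given in the sources used here. The design asks how the muscle's response to tendon and nerve loss compares between the strains. Whether samples of a group came from separate mice is not stated, so p-values measure the spread between these samples.

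The respiratory chain sits in the inner mitochondrial membrane. Complexes I and II pass electrons from NADH and succinate to ubiquinone, complex III passes them to cytochrome c and complex IV to oxygen; complexes I, III and IV pump protons, and complex V uses the proton gradient to make ATP. Most subunits are made from nuclear genes and imported, while a few are encoded in mitochondrial DNA, and the catalytic core of complexes I, III and IV is surrounded by small accessory subunits. Skeletal muscle uses muscle-specific forms of several complex IV subunits, and loss of nerve supply or use is known to lower its oxidative capacity.

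Total counts per library ranged from 24323862 to 43552964. Levels are given below as CPM, a gene's count relative to the total of its library after scaling. Genes that define muscle fibres were abundant in every group, with Ckm means of 12522 to 22333 CPM, and changed in both directions after surgery. Of the 12 fibre markers, 1 was higher and 4 lower in BL6, with a median log2 fold change of -0.15. In MRL 2 were higher and 2 lower, with a median of 0.19. Over all genes tested, 35.1% were higher and 32.8% lower in BL6, and 22.3% and 22.7% in MRL. Among the lower markers, Ckm had log2 fold changes of -0.63 (BL6) and -0.60 (MRL) and Acta1 of -0.99 and -0.76, all called. Markers of other cells moved with surgery: the summed level of the 5 measured of 6 listed white adipocyte genes ran from 18.1 to 47.9 CPM in unoperated and from 73.2 to 809 CPM in operated libraries, all 5 higher in both strains, and all 4 Schwann cell genes were also higher in both. Of 4 endothelial genes 3 were higher in BL6 and 4 in MRL, of 6 macrophage genes 4 and 1, of 5 fibroblast genes 2 and 0 and of 2 tendon genes 2 and 0. Replicate 4 of each operated group stood apart from its group. Its white adipocyte sum was 809 CPM in BL6 and 481 CPM in MRL, and its brown adipocyte sum (Ucp1, Cidea and Prdm16, 3 of 5 listed) was 92.7 and 125 CPM, against 4.86 to 23.5 CPM in the other operated libraries. The genes of mitochondrial DNA took 11.8% of the counts of replicate 4 of operated MRL and 20.1% to 24.9% in the other operated MRL libraries. These 2 libraries also differed from each other. The endothelial sum of replicate 4 of operated MRL was 284 CPM. It was 568 to 683 CPM in the other operated MRL libraries and 207 to 276 CPM in unoperated MRL. Replicate 4 of operated BL6 had 705 CPM, the highest of its group. It also had the lowest muscle fibre sum of its group (58464 CPM) and the highest fibroblast (3248 CPM) and macrophage (506 CPM) sums. The part of these cells in the results was not tested; the main counts below are also given without these 2 libraries. In bulk muscle, fewer cells of a type and less RNA per cell cannot be told apart.

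Respiratory chain transcripts were mostly higher in operated than in unoperated muscle of both strains. The 83 genes together took 3.20% to 3.61% of the counts in unoperated BL6 and 4.43% to 5.58% in operated BL6, and 3.50% to 4.13% in unoperated MRL and 4.01% to 5.57% in operated MRL. In BL6, 57 genes were higher and 6 lower after surgery at an adjusted p under 0.05 (edgeR's quasi-likelihood test with Benjamini-Hochberg adjustment over all genes tested), and 20 were not called. In that comparison 67.9% of all genes tested were called, 35.1% higher and 32.8% lower. In MRL, 47 were higher and 4 lower, where 45% of all genes were called, 22.3% higher and 22.7% lower. The median log2 fold change was 0.73 in BL6 and 0.47 in MRL, beside 0.04 and 0.01 over all genes tested. Without both operated replicate 4 libraries the counts were 66 higher and 6 lower in BL6 and 62 higher and 7 lower in MRL, where 33.1% of all genes were higher and 33.2% lower in BL6 and 28.7% and 30.2% in MRL. The count in MRL rested on single libraries to a larger extent than in BL6: leaving out each in turn gave 58 to 68 called genes in BL6 and 22 to 62 in MRL, with 22 without operated replicate 1, 30 without unoperated replicate 2, 31 without unoperated replicate 3 and 31 without operated replicate 3.

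Both strains called 47 genes higher, and each of the 47 had the larger log2 fold change in BL6. The genes share libraries, and the test of the difference between strains, given below, called 0 of the 83. After the correction for transcript length described below, the order turned for many of the 47, among them Cox7a1, Cox4i1 and all complex III genes of the 47. It stayed for others, such as Cox6a1 and Cox8a. Ndufs1, Sdha and Uqcc1 were lower in both. A further 9 genes were called higher in BL6 and not in MRL (Ndufa8, Ndufb8, Ndufb11, Ndufs4, Ndufs8, Uqcrb, Cox5a, Cox7a2l and Cox8b), and Sdhd, Uqcrc2 and Atp5s were lower in BL6 and not called in MRL. Atp5g1 was higher in BL6 and lower in MRL. For 51 genes every operated BL6 library lay above every unoperated one, and for 6 every one lay below (27.5% and 29.2% of all genes); in MRL this held for 4 and 4 genes (17% and 16.7%).

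**Figure D1:**
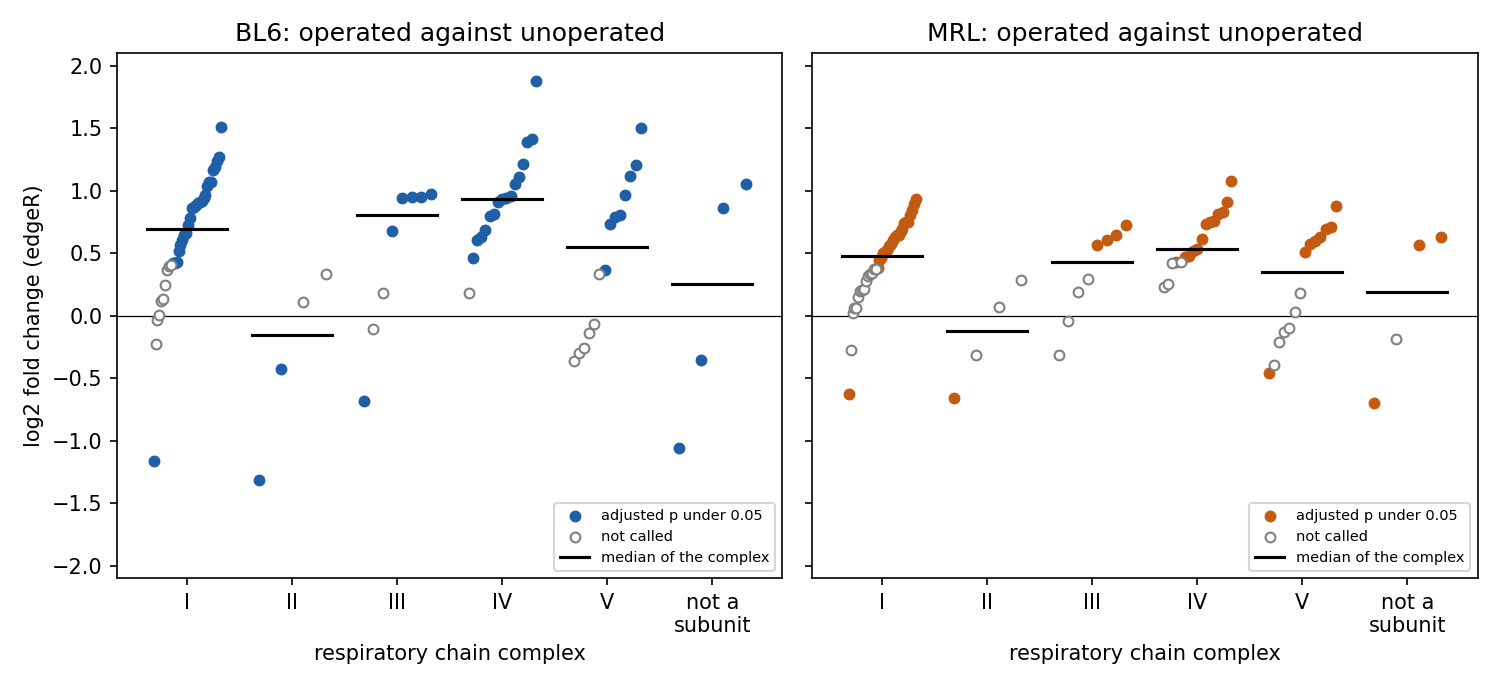
Log2 fold change of each respiratory chain gene after surgery (vertical axis, edgeR), by complex, in BL6 (left) and MRL (right). Each point is 1 gene, sorted by its value within the complex; filled points passed an adjusted p of 0.05 and bars are medians, which are above 0 for complexes I, III, IV and V and below 0 for complex II.

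These differences followed transcript length, and this bears on all counts above. Respiratory chain transcripts are short. Their annotated transcripts had a median of 745 nt (321.5 to 2900), beside 2707 nt over all genes tested. Of the 83, 56 were under 1000 nt. Of those 56, 50 were higher in BL6 and 44 in MRL, with none lower. Over all genes under 1000 nt, 65.8% were higher in BL6 and 38.5% in MRL, and from 3000 nt upward 26.2% and 19.1% were. Among respiratory chain genes from 1000 to under 2000 nt, 5 of 21 were higher and 4 lower in BL6. Across the 83 genes, which share libraries, Spearman's rho between length and log2 fold change was -0.61 in BL6 and -0.55 in MRL, and -0.28 and -0.17 across all genes. When each library's trend with length, fitted on the other genes, was removed, 20 genes were higher and 13 lower in BL6 (32.5% and 33.6% of all genes), with a median log2 fold change of 0.06. In MRL 10 were higher and 7 lower (21% and 24.8% of all genes), with a median of 0.12. Of the 63 genes called in BL6 without that correction, 26 stayed called in the same direction; Ndufb5, an accessory subunit of complex I, was called higher without it (0.42) and lower with it (-0.28, adjusted p 0.0293), and the other 36 were not called. In MRL 14 of 51 stayed called, all in the same direction. The sign of the log2 fold change turned for 19 of the 83 genes in BL6, 10 of them called before, and for 13 in MRL, 3 of them called before.

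The short-to-long balance of the other genes moved with the groups. For this, the log2 CPM of each gene was taken relative to its average over libraries. The median of 948 short genes minus that of 5055 long genes was -0.49 to -0.28 in unoperated BL6. In operated BL6 it was 0.28 to 0.51. In unoperated MRL it was -0.41 to 0.03, and in operated MRL 0.27 to 0.33 except for replicate 4, at -0.17. RNA integrity values were not used here, and the part of transcript length in the results was not tested beyond this correction. After it, Cox6a1, Cox8a, Ndufa13, Ndufb1-ps, Ndufb2, Ndufb4, Ndufb7, Atp5d and Uqcc3 were still higher in both strains. Ndufs1, Ndufs3, Sdha, Sdhd, Atp5l and Uqcc1 were lower in both. For Ndufb2 this rests on an annotated length that need not be that of the form expressed in muscle.

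**Figure D2:**
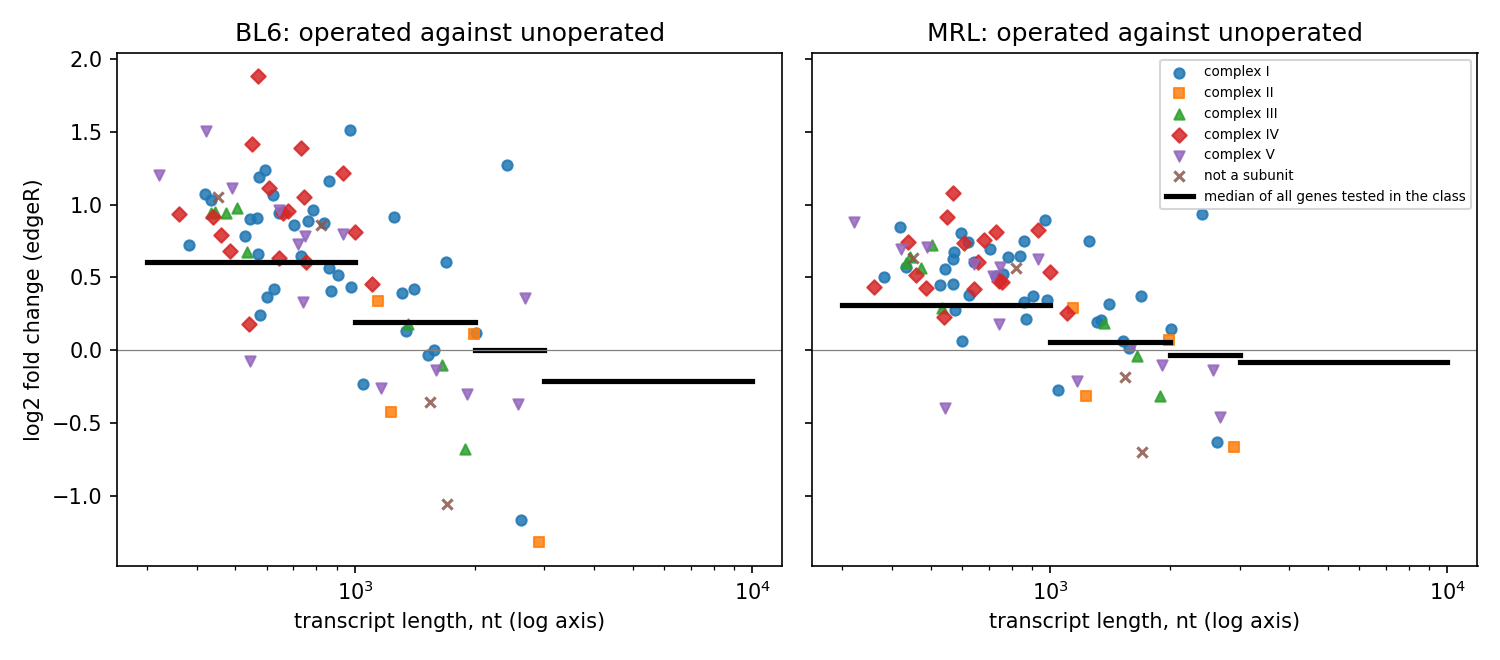
Log2 fold change after surgery (vertical axis) against annotated transcript length (horizontal log axis, nt) for the 83 genes, in BL6 (left) and MRL (right), with symbols for complexes. Thick bars are medians of all genes tested in 4 length classes, from 0.61 under 1000 nt to -0.21 from 3000 nt upward in BL6; respiratory chain genes lie mostly at the short, high end.

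Within complex I most accessory subunits rose and most core subunits were not called. Of 29 accessory genes, 25 were higher in BL6 and 21 in MRL with none lower; of the 7 core genes, which carry the flavin, the iron-sulfur clusters and the quinone site, Ndufs8 was higher in BL6 (log2 fold change 0.43) and Ndufs1 was lower in both strains. The accessory transcripts had a median length of 704 nt and the core transcripts 1312 nt. With the length trend removed, 9 complex I genes were higher and 5 lower in BL6, and 5 and 2 in MRL.

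Ndufb4 (chromosome 16, 37647170 to 37654453, GRCm38), an accessory subunit of the membrane arm, had the largest rise of the complex in BL6. It stood at 36.0, 45.2, 36.7 and 36.5 CPM in unoperated and at 107, 129, 125 and 78.9 CPM in operated BL6, and at 63.5, 52.1, 43.6 and 48.0 CPM in unoperated and 130, 108, 107 and 40.1 CPM in operated MRL. The BL6 groups did not overlap; in MRL replicate 4 of the operated group lay below all unoperated libraries. Ndufb4 rose by a log2 fold change of 1.51 (SE 0.27, adjusted p 0.000213) in BL6 and 0.89 (SE 0.26, adjusted p 0.0140) in MRL, and by 1.15 in MRL without both replicate 4 libraries; without operated replicate 1 the MRL call was lost. Ndufb2, another membrane arm subunit, rose from 99.8 ± 2.55 to 241 ± 55.9 CPM in BL6 (SD, n = 4; log2 fold change 1.27) and from 116 ± 16.9 to 221 ± 90.2 CPM in MRL (0.93). Its rise did not depend on the length correction (1.27 and 0.95 with it), but its annotated coding transcripts have a median of 2413 nt, which need not be the form expressed in muscle.

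Ndufs1, the largest iron-sulfur subunit of the NADH-oxidizing module, went the other way. It was at 548, 580, 637 and 700 CPM in unoperated and at 310, 340, 283 and 167 CPM in operated BL6, and at 443, 568, 595 and 630 CPM in unoperated and 367, 344, 238 and 497 CPM in operated MRL. All operated BL6 libraries lay below all unoperated ones, and in MRL replicate 4 of the operated group fell within the unoperated range. Ndufs1 fell by 1.16 on the log2 scale (SE 0.23, adjusted p 0.000429) in BL6 and by 0.63 (SE 0.22, adjusted p 0.0332) in MRL, and by 0.82 in MRL without both replicate 4 libraries. The MRL call was lost when any 1 of unoperated replicates 2, 3 and 4 or operated replicates 1, 2 and 3 was left out (adjusted p up to 0.108). Ndufv1, which binds NADH, was at 571 ± 55.9 and 558 ± 109 CPM in BL6 and 531 ± 47.9 and 555 ± 59.6 CPM in MRL (SD, n = 4), with adjusted p of 0.85 and 0.75.

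Complex II, the smallest and the only one made wholly of nuclear subunits, had no gene called higher in either strain. Sdha (chromosome 13, 74322254 to 74350280, GRCm38) codes for the flavoprotein that oxidizes succinate. It held 1154, 1232, 1342 and 1434 CPM in unoperated and 542, 649, 529 and 354 CPM in operated BL6, and 718, 975, 931 and 1003 CPM in unoperated and 500, 531, 406 and 859 CPM in operated MRL. The BL6 groups were far apart, and in MRL the 859 CPM of replicate 4 lay among the unoperated values. Sdha fell by 1.32 on the log2 scale (SE 0.22, adjusted p 0.000148) in BL6 and by 0.66 (SE 0.22, adjusted p 0.0242) in MRL, and with the length trend removed by 1.27 and 0.66. The MRL call of Sdha was lost without the same single libraries as that of Ndufs1 (adjusted p up to 0.0838). Sdhd, a membrane anchor, fell by 0.42 in BL6 (adjusted p 0.0249; not called without unoperated replicate 3 or 4 or operated replicate 1 or 4) and had a log2 fold change of -0.31 in MRL (adjusted p 0.112).

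Sdhb, the iron-sulfur subunit of complex II, stood at 659, 722, 789 and 752 CPM in unoperated and 1051, 999, 1022 and 618 CPM in operated BL6. Replicate 4 was the only operated BL6 library under the unoperated range. The log2 fold changes of Sdhb were 0.34 in BL6 and 0.29 in MRL, not called at adjusted p of 0.0923 and 0.174; without both replicate 4 libraries they were 0.48 and 0.38 and both were called. In BL6 the called genes of this complex were Sdha and Sdhd, both lower, and the other anchor gene, Sdhc, had a log2 fold change of 0.11.

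In complex III all 5 small subunits rose in BL6 and 4 in MRL, while the large core proteins did not. Uqcr10, Uqcr11, Uqcrh and Uqcrq were higher in both strains and Uqcrb in BL6. Uqcrq, a small subunit in contact with cytochrome b, held 418, 504, 481 and 386 CPM in unoperated and 852, 817, 1023 and 821 CPM in operated BL6; in MRL it held 503, 490, 321 and 449 CPM in unoperated and 838, 739, 837 and 498 CPM in operated muscle. The BL6 groups did not overlap, and replicate 4 of operated MRL was again at the unoperated level. Uqcrq rose by a log2 fold change of 0.97 (SE 0.18, adjusted p 0.000297) in BL6 and 0.72 (SE 0.18, adjusted p 0.00623) in MRL, and Uqcr11, another small subunit, by 0.95 and 0.64.

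The 2 core proteins of complex III and its Rieske iron-sulfur protein behaved differently from the small subunits. Uqcrc2 was at 749, 716, 786 and 829 CPM in unoperated and 523, 567, 522 and 311 CPM in operated BL6, with no overlap. It fell by 0.68 on the log2 scale in BL6 (SE 0.18, adjusted p 0.00330); in MRL the log2 fold change was -0.31 (adjusted p 0.153), and -0.39 and called without both replicate 4 libraries. Uqcrc1 (log2 fold change -0.10 in BL6 and -0.04 in MRL) and the Rieske gene Uqcrfs1 (0.18 and 0.19) were not called. With the length trend removed no complex III gene was higher in either strain, and Uqcrc2 was lower in BL6 (-0.80). The complex has the shortest transcripts, with a median of 519.5 nt.

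**Figure D3:**
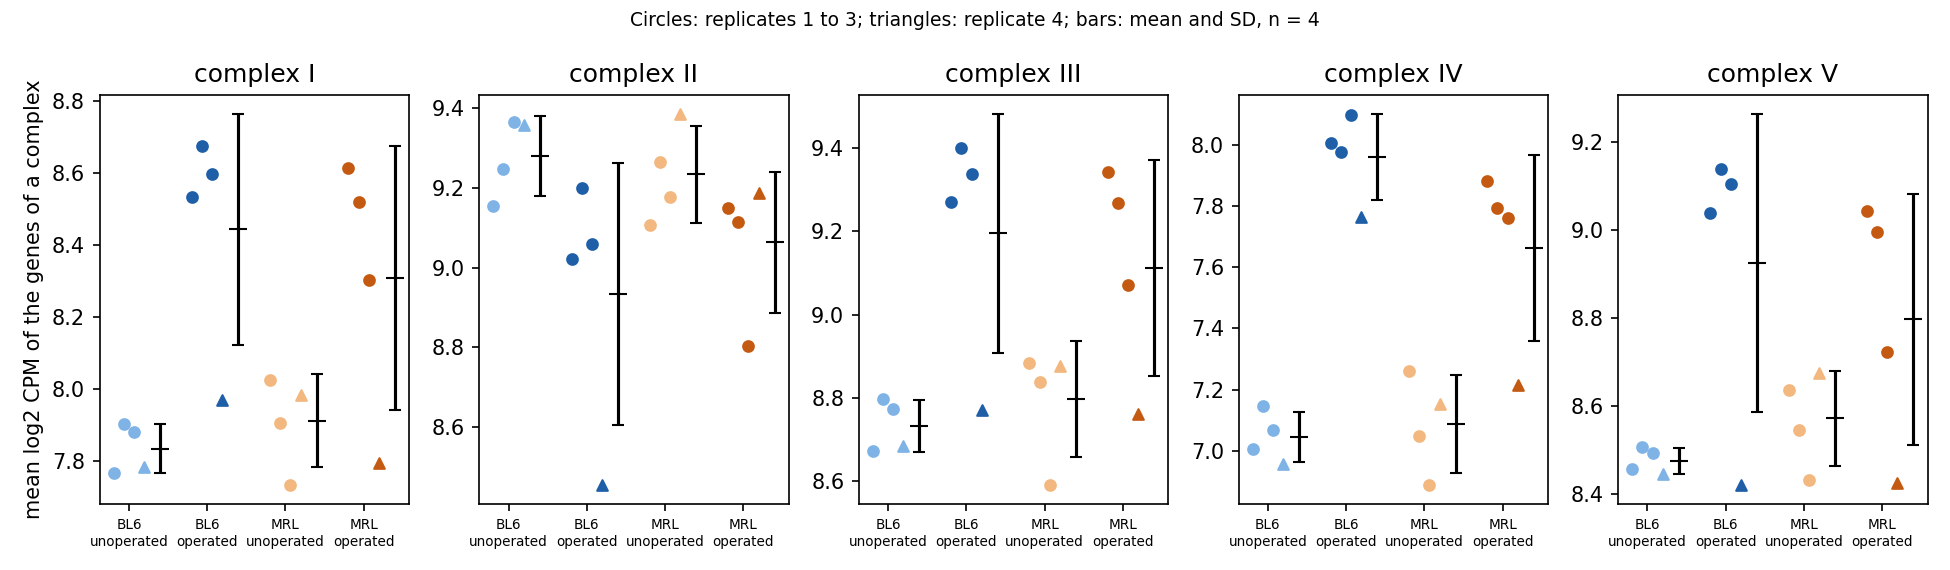
Mean log2 CPM of the genes of each complex in every library (vertical axis; ranges differ between panels and do not start at 0), by group, with the group mean and SD (n = 4). Triangles are replicate 4: in both operated groups it is the lowest library for complexes I, III, IV and V, for example 7.97 against 8.53 to 8.68 for complex I in operated BL6.

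Complex IV had the largest median rise of the 5 complexes, with 16 of 17 genes higher in BL6 (median log2 fold change 0.94), 13 of 17 in MRL (0.54), and none lower. With the length trend removed 7 were higher and 1 lower in BL6, and 3 higher in MRL. Cox6a1 (chromosome 5, 115345642 to 115348981, GRCm38), the form of subunit 6a used outside striated muscle, had the largest log2 fold change of the 83 genes in both strains when all libraries were fitted. Ndufb2 was above it in both strains with the length trend removed, and Ndufb2, Ndufb4 and Atp5k were above it in MRL without both replicate 4 libraries. The corrected value of Ndufb2 rests on an annotated length that need not be that of the form expressed in muscle. Cox6a1 stood at 22.8, 21.9, 20.4 and 17.2 CPM in unoperated and 73.5, 56.9, 64.4 and 107 CPM in operated BL6. In MRL it stood at 34.8, 24.97, 21.7 and 30.8 CPM in unoperated and 59.2, 49.7, 64.3 and 63.6 CPM in operated muscle. Neither strain's groups overlapped, and unlike most of the genes Cox6a1 was highest in replicate 4 of operated BL6. The log2 fold change was 1.88 in BL6 (SE 0.19, adjusted p 8.92e-06), a 3.68-fold rise, and 1.08 in MRL (SE 0.19, adjusted p 0.00116). With the length trend removed it was 1.15 and 0.71, and without both replicate 4 libraries 1.66 and 1.04.

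Cox8a, the form of subunit 8 found in most tissues, rose from 20.5 ± 2.20 to 54.7 ± 15.1 CPM in BL6 (SD, n = 4; log2 fold change 1.42) and from 22.5 ± 2.81 to 42.3 ± 4.36 CPM in MRL (0.91), with no overlap in either strain. Its muscle counterpart Cox8b was at 498, 703, 657 and 578 CPM in unoperated and 1211, 1278, 1341 and 826 CPM in operated BL6, and at 799, 737, 648 and 756 CPM in unoperated and 1162, 1108, 1066 and 631 CPM in operated MRL. Cox8b rose by 0.94 in BL6; the 0.43 in MRL was not called (adjusted p 0.0806), and without both replicate 4 libraries it was 0.60 and called. After removal of the length trend Cox8b was called in neither strain (-0.08 and -0.15), while Cox8a was higher in both (0.67 and 0.51). Per transcript length the muscle form stood far above the common form (1691 against 37.3 CPM per 1000 nt in unoperated BL6).

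The muscle forms Cox6a2 and Cox7a1 rose too. Cox6a2 went from 1228 ± 184 to 2380 ± 466 CPM in BL6 (SD, n = 4; log2 fold change 0.95) and from 954 ± 76.0 to 1615 ± 386 CPM in MRL (0.76). Cox7a1 rose by 0.91 and 0.75, and Cox7a2, the form of subunit 7a found in most tissues, by 0.94 and 0.61. After removal of the length trend the values of Cox6a2 were 0.29 (adjusted p 0.105) and 0.39 (adjusted p 0.0483), those of Cox7a1 0.0063 (adjusted p 0.975) and 0.22 (adjusted p 0.258), and those of Cox7a2 0.27 and 0.23, neither called. Without operated replicate 1 the MRL calls of Cox7a1 and Cox7a2 were also lost. Whether the balance of muscle to common form shifted was tested on the log2 ratio per library, in 6 two-sided exact permutation tests of 4 against 4 libraries, in which p cannot go below 0.0286. The ratio of Cox6a2 to Cox6a1 was 5.89 ± 0.33 in unoperated and 4.996 ± 0.68 in operated BL6 (SD, n = 4), a difference of -0.90 (exact p 0.0571, adjusted 0.114), and the difference in MRL was -0.37 (exact p 0.229, adjusted 0.343). For Cox8b to Cox8a it was -0.46 in BL6 (exact p 0.314, adjusted 0.377) and -0.52 in MRL (exact p 0.0286, adjusted 0.114). For Cox7a1 to Cox7a2 it was -0.06 in BL6 (exact p 0.914, adjusted 0.914) and 0.12 in MRL (exact p 0.0571, adjusted 0.114). None passed after adjustment, and for Cox6a2 to Cox6a1 and Cox8b to Cox8a the lowest ratio of each strain was that of operated replicate 4.

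**Figure D4:**
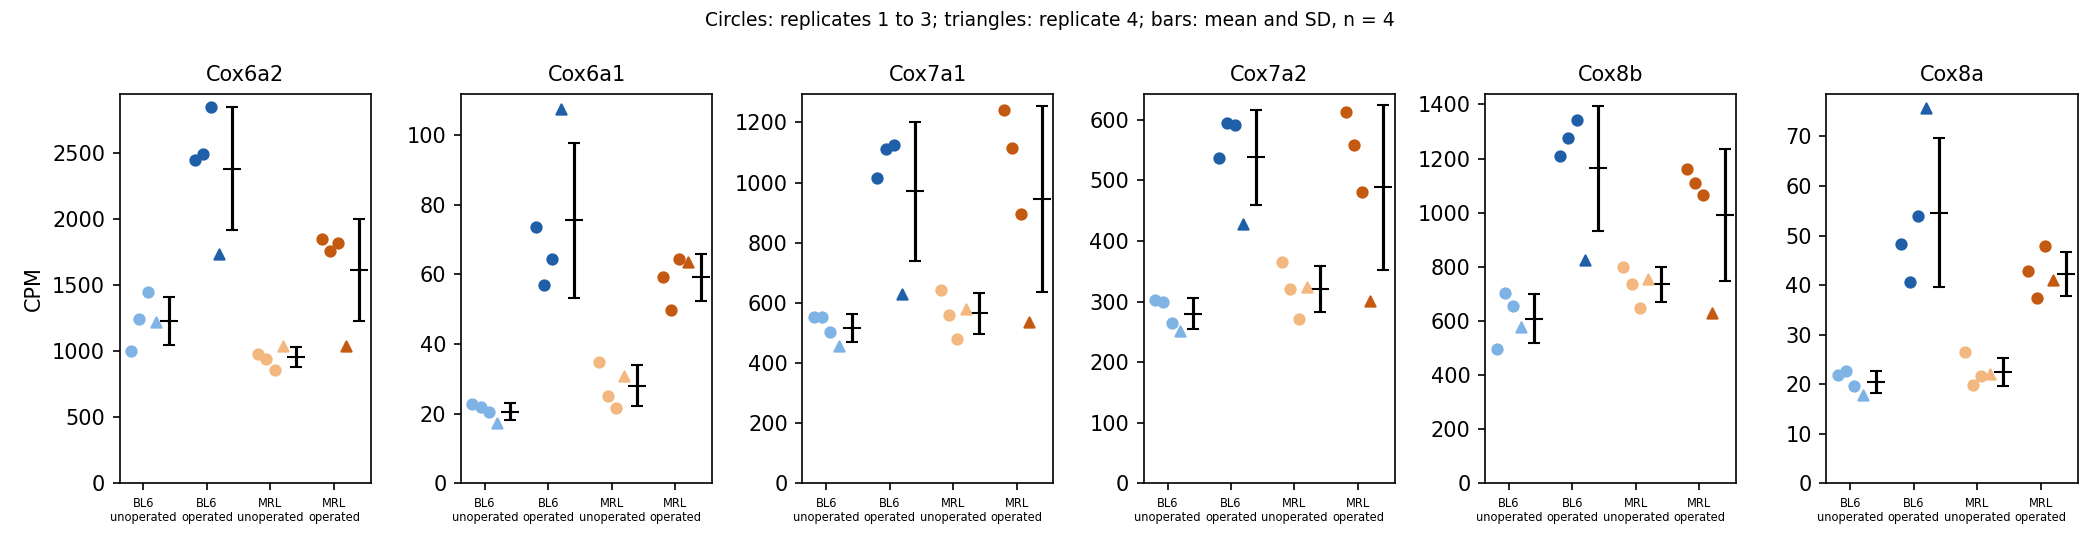
CPM (vertical axes from 0, with different ranges) of the muscle forms Cox6a2, Cox7a1 and Cox8b and of the forms Cox6a1, Cox7a2 and Cox8a found in most tissues, in every library, with the group mean and SD (n = 4) and replicate 4 as triangles. Cox6a1 and Cox8a are highest in replicate 4 of operated BL6, where the other 4 genes are lowest within that group.

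Other complex IV genes showed a wide range of levels. Cox4i1, the common form of subunit 4, rose from 1055 ± 68.6 to 1603 ± 256 CPM in BL6 (SD, n = 4; log2 fold change 0.60) and by 0.47 in MRL. Cox4i2, an oxygen-regulated form known from lung, had the lowest level of the 83 in unoperated BL6, also per transcript length, at 2.62 ± 0.491 CPM, and rose by 1.39 in BL6 and 0.81 in MRL. Ndufa4 rose by 0.79 and 0.52 and its paralog Ndufa4l2, which is induced by low oxygen, by 1.21 and 0.83. Per transcript length in unoperated BL6, the order within the complex began with Cox6a2 (1806 ± 271 CPM per 1000 nt), Cox8b (1691 ± 250), Ndufa4 (1550 ± 117) and Cox4i1 (1398 ± 90.9), and neighbours in this order overlapped between libraries. It ended with Cox8a, Cox6a1, Ndufa4l2, Cox7c and Cox4i2, at 37.3, 36.0, 7.99, 7.15 and 3.58 CPM per 1000 nt. Cox5a, which is paired with subunit 4, rose by 0.63 in BL6 and was not called in MRL (0.42, adjusted p 0.0985), and Cox6b1 rose by 0.68 and 0.43. After the same correction, Cox4i1 (0.0039 and 0.14), Ndufa4 (-0.08 and 0.03), Cox5a and Cox6b1 (-0.16 and -0.04) were called in neither strain, and Cox4i2 (0.79 and 0.48) and Ndufa4l2 (0.77 and 0.60) in BL6 and not in MRL. The MRL calls of Cox6b1, Ndufa4 and Cox4i1 were near the threshold (adjusted p 0.0456, 0.0408 and 0.0386) and were lost in 14, 11 and 8 of 25 alternatives. Those of Cox4i2 and Ndufa4l2 were lost in 5 and 2.

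In complex V 8 of 14 genes were higher in BL6 and 7 in MRL, and both the catalytic head and the rest were mixed. Of the 5 head (F1) genes, the short epsilon and delta subunit genes Atp5e and Atp5d were higher in both strains, and the alpha, beta and gamma subunit genes Atp5a1, Atp5b and Atp5c1 were called in neither. Of the 9 others, 6 were higher in BL6 and 5 in MRL, where Atp5g1 was lower. Atp5l and Atp5j, both with short transcripts, were called in neither strain. With the length trend removed, Atp5c1 was lower in BL6 (-0.60, adjusted p 0.00356) and Atp5l lower in both strains (-0.87 and -0.81). Atp5d was still higher in both (0.33 and 0.38). Atp5e was at 547, 614, 536 and 479 CPM in unoperated and 1497, 1664, 1782 and 1216 CPM in operated BL6, and at 887, 739, 841 and 1133 CPM in unoperated and 1740, 1555, 1675 and 847 CPM in operated MRL. The BL6 groups were separated, while replicate 4 of operated MRL lay within the unoperated range. Atp5e rose by 1.5 (SE 0.21, adjusted p 4.29e-05) in BL6 and by 0.69 (SE 0.21, adjusted p 0.0150) in MRL; with the length trend removed it was 0.58 in BL6 and 0.15, not called, in MRL. The MRL call was also lost without unoperated replicate 2, operated replicate 1 or operated replicate 3.

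Atp5b, the catalytic beta subunit, was the most abundant gene of the set per transcript length (2133 ± 134 CPM per 1000 nt in unoperated BL6; SD, n = 4). Its levels were 3753, 4016, 4303 and 4273 CPM in unoperated and 3785, 4073, 3342 and 2095 CPM in operated BL6, with replicates 3 and 4 under the unoperated range and the others within it. The log2 fold changes of Atp5b were -0.30 and -0.10, and those of Atp5a1 -0.37 (adjusted p 0.0607) and -0.13. Atp5k and Atp5mpl, small subunits of the membrane part, rose by 1.21 and 1.12 in BL6 and by 0.88 and 0.71 in MRL. Atp5g3, the abundant gene of the proton-carrying c ring, rose from 812 ± 33.8 to 1349 ± 277 CPM in BL6 (0.73) and by 0.51 in MRL. None of these calls held with the length trend removed: Atp5k was then at 0.14 (adjusted p 0.304) and 0.26 (adjusted p 0.0681), Atp5mpl at 0.27 (adjusted p 0.0918) and 0.22 (adjusted p 0.193), and Atp5g3 at 0.10 and 0.16. The MRL call of Atp5g3 (adjusted p 0.0414) was lost in 13 of 25 alternatives, and that of Atp5mpl also without operated replicate 1.

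Among the genes that match by name but are not subunits, the complex III assembly factors split. Uqcc1 fell by 1.06 in BL6 (adjusted p 0.000225) and by 0.70 in MRL (adjusted p 0.00885), with no overlap in either strain. Uqcc2 rose by 1.05 and 0.63 and Uqcc3 by 0.86 and 0.56; with the length trend removed Uqcc2 was called in neither strain (0.17 and 0.13). Atp5s fell by 0.35 in BL6 (adjusted p 0.0163) and was not called in MRL (-0.18).

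The surgery effect was not shown to differ between strains for any of the 83 genes. The test of the difference (the interaction in edgeR) called 0, and 0.248% of all genes; 5 genes had an unadjusted p under 0.05, and DESeq2 called 1, Atp5g1. The 3 with the smallest p were Atp5g1 (difference -0.82, adjusted p 0.125), Cox6a1 (-0.80, adjusted p 0.192) and Atp5e (-0.81, adjusted p 0.229), in each case MRL minus BL6. The median difference was -0.22 over the 83 genes, and 65 of 83 were negative. It was 0.06 with the length trend removed.

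Atp5g1 (chromosome 11, 96068852 to 96075670, GRCm38), a second gene for the c ring subunit, was called in opposite directions in the strains. It held 29.2, 25.6, 27.0 and 25.95 CPM in unoperated and 37.4, 38.8, 38.2 and 24.1 CPM in operated BL6, and 8.10, 7.31, 7.45 and 9.18 CPM in unoperated and 6.90, 5.86, 4.58 and 5.98 CPM in operated MRL. All BL6 libraries lay above all MRL libraries, and within operated BL6 only replicate 4 was under the unoperated range. Surgery went with a log2 fold change of 0.36 in BL6 (SE 0.15, adjusted p 0.0381) and -0.46 in MRL (SE 0.15, adjusted p 0.0242). Without both replicate 4 libraries these were 0.50 and -0.48, and the difference of -0.97 was called (adjusted p 0.0201). The BL6 call was lost in 7 of 25 alternatives (adjusted p up to 0.0999): when only the BL6 groups were fitted, or without unoperated replicate 2, 3 or 4 or operated replicate 1, 2 or 3. The MRL call was lost without unoperated replicate 4 or operated replicate 3.

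Between the strains few respiratory chain genes differed. In unoperated muscle Atp5e was higher in MRL and Atp5g1, Cox7c and Ndufa12 were lower, 4 of 83, where 10.4% of all genes were called, 5.02% higher and 5.36% lower. The unoperated call of Ndufa12 was lost in 14 of 25 alternatives (adjusted p up to 0.112) and that of Atp5e in 8 (up to 0.117), 12 and 7 of them leaving out a single library. In operated muscle Atp5g1, Cox7c, Ndufa12 and Cox5b were lower in MRL, 4 of 83, where 12.9% of all genes were called, 7.6% higher and 5.27% lower. The median log2 difference of MRL against BL6 was 0.11 in unoperated and -0.07 in operated muscle. Without both operated replicate 4 libraries, a fit that leaves the unoperated libraries as they are but changes the spread shared by all groups, 8 genes were higher and 6 lower in unoperated MRL, against 9.05% and 9.65% of all genes. Atp5g1 was lower in MRL by 1.75 on the log2 scale (adjusted p 6.62e-07) in unoperated and by 2.57 (adjusted p 1.16e-08) in operated muscle.

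Cox7c was counted at 4.48, 3.81, 3.99 and 3.17 CPM in unoperated BL6 and 1.80, 1.48, 1.48 and 1.81 CPM in unoperated MRL, lower per transcript length in unoperated BL6 than every complex IV gene but Cox4i2. The strain groups did not overlap, and the log2 difference was -1.23 (SE 0.20, adjusted p 0.000698) in unoperated and -1.18 in operated muscle. Cox5b, a zinc-binding subunit singled out after its values were seen, was at 206 ± 36.3 CPM in BL6 and 113 ± 21.6 CPM in MRL after surgery (SD, n = 4), a difference of -0.87 (adjusted p 0.00102), and at 99.6 ± 9.77 and 81.0 ± 6.11 CPM in unoperated muscle (adjusted p 0.242). Atp5e was higher in unoperated MRL by 0.73 (adjusted p 0.0354), and the difference in operated muscle was -0.08 (adjusted p 0.833); with the length trend removed it was not called in unoperated muscle.

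The levels and strain differences of Atp5g1, Cox7c and Ndufa12 are uncertain, because each has a near-identical copy elsewhere in the genome. A transcript of another gene with at least 95% identity over at least 50% of the length was found for 12 of the 83 genes, and how the authors treated reads that fit both is not given in the sources used here. All 3 lower strain calls in unoperated muscle fell among these 12. Ndufa12, an accessory subunit of complex I, has the copy Gm15920, which is 99.5% identical over 71.0% of its length. Ndufa12 stood at 109, 117, 119 and 120 CPM in unoperated BL6 and 73.9, 70.03, 59.7 and 71.0 CPM in unoperated MRL, a log2 difference of -0.76 (adjusted p 0.0494). Gm15920 was at 0.507 ± 0.139 CPM in unoperated BL6 and 68.6 ± 5.30 CPM in unoperated MRL (SD, n = 4). Their sum was 117 ± 5.07 CPM in BL6 and 137 ± 11.1 CPM in MRL, so the sum was not lower in MRL.

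For Atp5g1 the copy Gm10039, 99.8% identical over 69.0% of the length, had 6.21 ± 1.05 CPM in unoperated BL6 and 5.93 ± 0.420 CPM in unoperated MRL (SD, n = 4). Adding it to the 26.9 ± 1.60 and 8.01 ± 0.854 CPM of Atp5g1 leaves the strains apart. If reads that fit both genes were discarded, this sum lacks them, so it cannot settle the strain difference. The copy of Cox7c, Gm10012, 99.4% identical over 58.3%, was not analysed here. Atp5l, with 9 such copies, was counted at 8.48 ± 0.996 CPM in unoperated BL6 and had log2 fold changes of -0.07 and -0.39 after surgery, neither called. With the length trend removed they were -0.87 and -0.81, both called. Of the 71 genes without a copy, 50 were higher and 6 lower in BL6 and 43 higher and 3 lower in MRL.

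**Figure D5:**
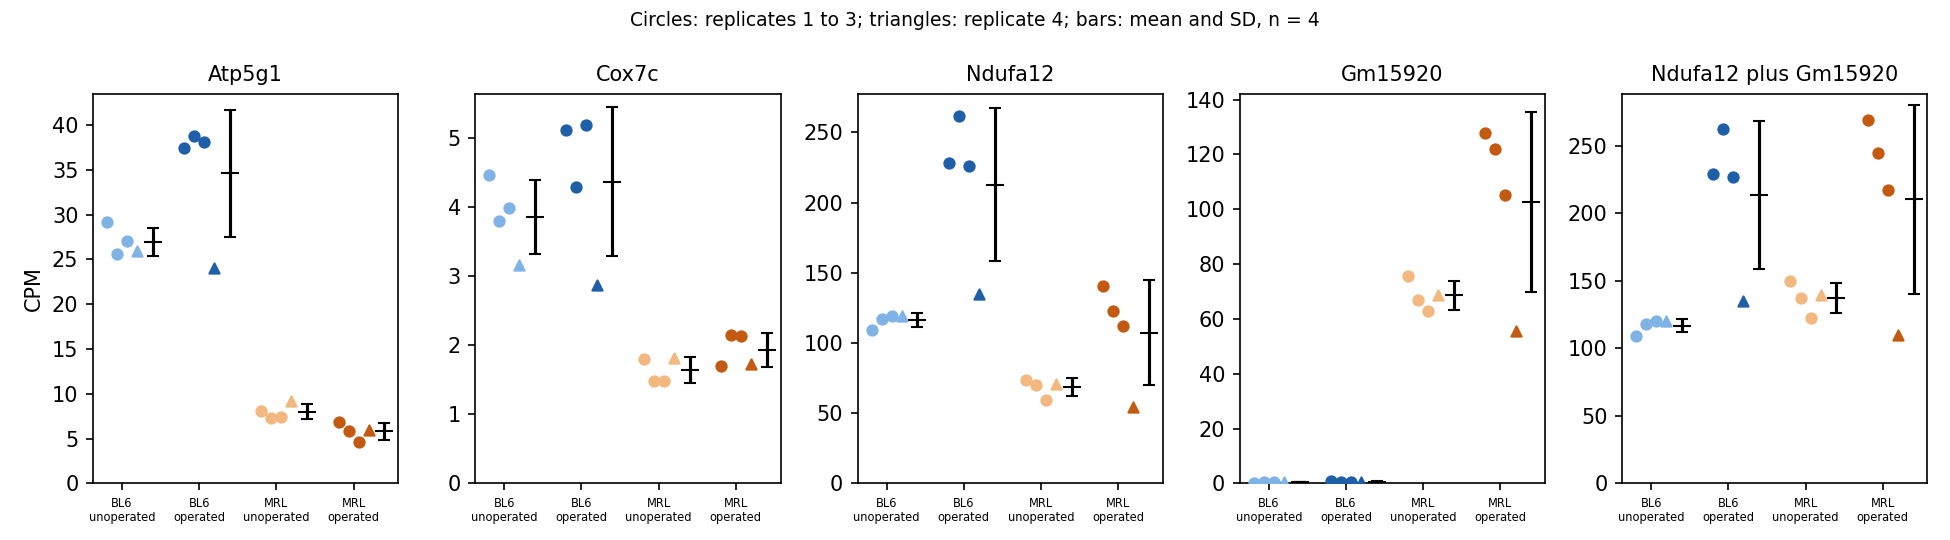
CPM (vertical axes from 0, with different ranges) in every library of Atp5g1, Cox7c, Ndufa12, its near-identical copy Gm15920 and the sum of the latter pair, with the group mean and SD (n = 4) and replicate 4 as triangles. Gm15920 is near 0 in all BL6 libraries and at 55.5 to 128 CPM in MRL, and the sum overlaps between strains after surgery.

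Promoter sequence was compared because many of these genes moved together and several known activators of respiratory genes bind near their starts. RefSeq promoters (GRCm38.p6, 250 bases before to 50 after the start) were found for 68 of the 83 genes. The NRF1 core GCGCANGCG, on either strand, was present in 27.9% of them, in 15.5% of the 9128 tested genes with a promoter in the table and in 7.03% of all 27025 promoters. The GABP motif CCGGAAG was in 23.5%, 20.2% and 9.93%, and the ERR motif TCAAGGTCA in 2.94%, 0.285% and 0.466%. The 2.94% is 2 of 68 promoters, those of Sdhd and Atp5g3. The NRF1 core was in 13 of 47 promoters of genes higher in BL6 and in 2 of 4 of those lower. The 120 bases upstream of the outermost annotated start are shown for the genes with the largest rises in complexes IV, I and V and for a muscle form, 5′ to 3′ on the gene's strand, with matches to the 3 motifs in capitals: Cox6a1 (chr5:115348982-115349101, minus strand), Ndufb4 (chr16:37654454-37654573, minus strand), Atp5e (chr2:174464106-174464225, minus strand) and Cox8b (chr7:140900447-140900566, minus strand).
Cox6a1: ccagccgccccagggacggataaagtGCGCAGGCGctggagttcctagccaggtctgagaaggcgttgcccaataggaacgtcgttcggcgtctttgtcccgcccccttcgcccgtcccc
Ndufb4: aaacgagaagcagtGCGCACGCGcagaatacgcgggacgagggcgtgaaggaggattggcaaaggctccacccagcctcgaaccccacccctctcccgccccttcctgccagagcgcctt
Atp5e: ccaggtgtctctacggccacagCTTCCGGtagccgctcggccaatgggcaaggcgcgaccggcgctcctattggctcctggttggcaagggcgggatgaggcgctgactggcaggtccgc
Cox8b: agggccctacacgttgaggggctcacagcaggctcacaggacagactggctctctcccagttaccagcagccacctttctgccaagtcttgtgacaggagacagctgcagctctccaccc
In these 120 bases Cox6a1 and Ndufb4 each hold 1 match to the NRF1 core. Atp5e holds 1 to the GABP motif on the reverse strand, and Cox8b holds none of the 3. The shares above count the whole promoters, in which Cox6a1 and Ndufb4 each hold 3 NRF1 matches and Cox6a1 also 1 GABP match. A match is a description of the letters, not evidence of binding.

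Other genes of the pathway did not follow the subunits as a block in the fit without the length correction. All values here come from that fit, and the part of transcript length in this contrast was not tested. Of 43 assembly factors tested, 13 were higher and 19 lower in BL6 (median log2 fold change -0.27) and 7 higher and 15 lower in MRL (-0.24). These are 30.2% and 44.2% of the list beside 35.1% and 32.8% of all genes in BL6, and 16.3% and 34.9% beside 22.3% and 22.7% in MRL. Of 6 regulators, 4 were lower in BL6. They were the coactivator gene Ppargc1b (-1.42), Gabpa (-1.06), which codes for a GABP subunit, Tfam (-0.83), which maintains mitochondrial DNA, and Esrra (-0.40). The first 3 were also lower in MRL. Ppargc1a was called in neither strain, nor was Nrf1 (0.07 and -0.05). Of 12 other mitochondrial proteins, 2 were higher and 3 lower in BL6 and 0 higher and 3 lower in MRL, among them the matrix enzyme citrate synthase, Cs (-0.88 and -0.56), and the outer membrane channel Vdac1 (-1.23 and -0.97). Of 5 respiratory chain genes outside the name pattern, 3 were higher in BL6 and 2 in MRL, including the electron carrier gene Cycs (0.97 and 1.15) and Atpif1, an inhibitor of ATP synthase (1.41 and 1.08). Of the 13 genes of mitochondrial DNA in the table, which include ribosomal and transfer RNAs, 7 were higher in BL6 and 10 in MRL with none lower. The authors' deposited table of comparisons gives 61 of the 83 genes higher and 6 lower in BL6, and 39 higher and 9 lower in MRL, at its own false discovery rate under 0.05, where the authors' deposited table calls 64.9% of all genes in BL6 and 56.4% in MRL.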

How the data were processed

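Messenger RNA was measured by RNA sequencing in 16 samples. Minced muscle was extracted with an RNA column kit that included a DNase step, per the labels' protocols. The submitters' processing notes name FastQC, STAR and edgeR and the build mm10; versions, the counting program, its use of strand and its treatment of reads that map to several places are not given in the sources used here. The authors deposited whole-number counts per gene, a reading of the values. Their deposited table of 4 comparisons holds log2 fold changes, an average log2 CPM, p-values and false discovery rates, per the file headers; it was used for 1 sentence.

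From the counts, R 4.3.3 with edgeR 4.0.16 fitted 1 mean for each group by quasi-likelihood over all 16 samples, with TMM scaling and filterByExpr (minimum count 10; 11709 of 11710 genes kept). Genes were called at a Benjamini-Hochberg adjusted p under 0.05 over all genes tested. Log2 CPM used a prior count of 2; ratios of isoforms were tested by exact permutation. A gene with 3 counts, used as the floor, has 0.0689 to 0.123 CPM depending on the library; floors cover counting error only. The fit was tested on simulated counts. Every pair of replicates differed by more than sampling noise.

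Transcript length is the median over protein-coding basic transcripts in GENCODE M21 (GRCm38), or over all basic transcripts of a gene without a coding one. Coordinates are 1-based from it. Near-identical copies came from blastn. The length trend was fitted per library by lowess (span 0.3) on genes outside the set. Alternatives covered scaling (total counts alone; RLE size factors), DESeq2 1.42.0, no filter, leaving out the mitochondrially encoded genes, a prior count of 0.5 for the ratios, fits of only the groups compared, a replicate block and leaving out each library; the length correction and leaving out both operated replicate 4 libraries were chosen after seeing the data.

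The 83 genes, the gene lists and the tests were chosen with earlier results of these data known. Genes named are, per complex and surgery comparison, the 2 with the largest called rise and fall; per strain comparison, 1 each; the 3 smallest p of the interaction; 10 core subunits, the tissue isoforms and the genes that are not subunits. Names outside this rule, such as Ndufs8 and Cox5b, were chosen after values were seen. Not every gene of the set is reported by name here.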

Additional observations from a re-analysis of the deposited data

Results flagged for a closer look

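In 10 of 112 groups of 4 values checked, 1 library lay far from the other 3 by Dixon's criterion at the 95% level. For a single group, chance gives about 1 in 20. The 112 groups share libraries and genes, so the count of 10 cannot be judged by that rate. In 7 of these it was an operated replicate 4. In operated BL6, replicate 4 had the lowest complex V mean (8.42 log2 CPM), Sdhb (618 CPM), Atp5g1 (24.1 CPM) and log2 ratio of Cox7a1 to Cox7a2 (0.56). In operated MRL, replicate 4 had the lowest Cox6a2 (1040 CPM), Cox4i2 (2.66 CPM) and Uqcc2 (168 CPM). The other 3 were the complex III mean of unoperated MRL replicate 3 (8.59 log2 CPM, low), Ndufb4 in unoperated BL6 replicate 2 (45.2 CPM, high) and Uqcrq in operated BL6 replicate 3 (1023 CPM, high).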

How the results depend on the processing

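The counts of genes called after surgery in BL6 stayed within 1.5 times the main count under every alternative but the removal of the length trend. That removal left 33 of 83 called in BL6 (main 63) and 17 in MRL (main 51). It also turned the sign for 19 of the 83 genes in BL6 and 13 in MRL; among those named, these include in BL6 Cox7c (-0.61), Cox5a (-0.064), Cox8b (-0.082), Cox6b1 (-0.16) and Ndufa4 (-0.084) and in MRL Cox6b1 (-0.039). It turned the medians of the interaction (0.059), of MRL against BL6 in unoperated muscle (-0.067) and in operated muscle (0.038). Leaving out each replicate in turn gave 58 to 68 calls in BL6, 22 (without operated replicate 1) to 62 (without operated replicate 4) in MRL, 0 to 1 for the interaction, 2 to 6 for the unoperated and 4 to 7 for the operated strain comparison; in MRL, leaving out unoperated replicate 2 or 3 or operated replicate 3 gave 30, 31 and 31. The median of the operated strain comparison then ranged from -0.19 to 0.057 (0.057 without operated MRL replicate 4). The unoperated strain comparison called 7 with total counts alone, 13 when only those groups were fitted and 14 without both operated replicate 4 libraries (main 4). The interaction called 1 with DESeq2 and 1 without those libraries. The cause was not tested.

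Scaling by total counts alone moved the median of all genes in BL6 from 0.04 to 0.18 and gave 64 higher and 7 lower in BL6 and 55 and 4 in MRL. With the replicate number as a block, 63, 49, 0, 4 and 4 genes were called for BL6, MRL, the interaction and the unoperated and operated strain comparisons; the labels do not say that a number links samples, and deviations of same-numbered samples correlated at -0.14 on average in BL6 and 0.09 in MRL. The block left Cox8b to Cox8a in MRL at -0.52 with an exact p of 0.125, and changed no other isoform call. Leaving out replicates, Cox6a2 to Cox6a1 in BL6 ranged from -1.05 to -0.57, Cox7a1 to Cox7a2 from -0.089 to 0.033 in BL6 (0.033 without operated replicate 4) and from 0.088 to 0.15 in MRL, and Cox8b to Cox8a in MRL from -0.64 to -0.32. Cox4i2, at 63 to 308 counts per library, was above the floor of 3 counts in all 16.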
